A study of Mus musculus with 6 samples.

Results

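The genes described here encode the nuclear-encoded subunits of the respiratory chain complexes I, III and IV and of the mitochondrial ATP synthase, with the complex I assembly factors that carry the same name stem. They were chosen by symbol as all genes starting with Nduf, Uqcr, Atp5, Cox4, Cox5, Cox6, Cox7 or Cox8 for which the array has a probe set paired with a single gene. This gave 84 of 18820 genes, on 116 probe sets, and where a gene had several the probe set with the highest mean over the 6 arrays was used. Gene expression was measured in the liver of female C57BL/6J mice with Affymetrix Mouse Gene 1.1 ST arrays, 1 mouse per array, in 3 CT and 3 LERKO mice. CT mice were ERα fl/fl, with floxed alleles of the estrogen receptor gene Esr1. LERKO mice were Alb-cre/ERα fl/fl, with the floxed alleles and cre recombinase driven by the albumin promoter, which is active in hepatocytes and not in the other cells of the liver. Effects of the cre transgene and of ERα loss cannot be told apart in this design, and the age of these mice is not given in the sources used here. The study profiled LERKO liver to see whether it changes in the way seen earlier in mice that lack ERα in all tissues, and the files used here compare LERKO with CT.

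The respiratory chain of the inner mitochondrial membrane passes electrons from NADH (complex I) and succinate (complex II) through ubiquinone, complex III and cytochrome c to complex IV, which reduces oxygen. Complexes I, III and IV pump protons across the membrane, and the ATP synthase, also called complex V, uses the returning protons to make ATP. Liver is rich in mitochondria and draws on this system for gluconeogenesis, urea synthesis and lipid handling. The mitochondrially encoded subunits of the same complexes have no probe set of the kind used here and were not analysed. Complex II subunits have other names and are described further on.

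Values are log2 signals from the robust multichip average (RMA), and a difference is LERKO minus CT on that scale. Esr1, the targeted gene, lay between 8.29 and 8.78 in CT and between 6.75 and 7.06 in LERKO livers. Hepatocyte markers were high in all arrays, with a mean over 9 genes between 12.99 and 13.07. Arrays correlated with each other at 0.9675 to 0.9889. Transcripts typical of other organs were high in 2 arrays. CT replicate 3 held muscle, pancreas and squamous epithelium transcripts, with the mean of 20 skeletal muscle genes at 5.92 beside 3.82 and 3.88 in the other CT mice and 3.99 to 4.65 in LERKO mice. LERKO replicate 2 held adrenal transcripts, with the mean of 9 adrenal cortex genes at 8.51 beside 3.85 and 4.16 in the other LERKO mice, and more muscle and fat transcripts than those mice. Results are therefore also given without these arrays. In whole liver, fewer cells of a type and less RNA per cell cannot be told apart.

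Of the 84 genes, 67 had a signal of 100 or more (6.64 on the log2 scale) in all 6 arrays. A further 4 reached it in some arrays, namely Atp5k, Cox7a1, Ndufa5 and Ndufaf6, and 13 in none. The 71 genes that reached a signal of 100 in at least 1 array entered the limma test together with all other such probe sets, 10633 in all. The 13 others did not enter this test and are given as levels and differences.

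For a closer view of genes whose groups separate or whose differences are largest below, the 250 bases before a transcription start of the RefSeq table are shown for the c subunit genes of ATP synthase and for Ndufaf4 and Cox7a1. Sequences are from RefSeq on GRCm38.p6, written 5′ to 3′ in the direction of transcription. Atp5g1 lies at chr11:96075632-96075881 on the minus strand, Atp5g2 at chr15:102671048-102671297 on the minus strand and Atp5g3 at chr2:73911327-73911576 on the minus strand. Ndufaf4 lies at chr4:24897833-24898082 and Cox7a1 at chr7:30183921-30184170, each on the plus strand. For Atp5g1 and Atp5g3 this is the start of a transcript inside the gene's annotated span, which ends at position 96075694 for Atp5g1 and at 73912464 for Atp5g3, so these stretches overlap the span of another transcript. Capitals mark a match on either strand to the CCAAT box (CCAAT) in Atp5g1, Atp5g3 and Cox7a1, and to the NRF1 palindrome (GCGCA followed by its reverse complement TGCGC) in Atp5g2 and Ndufaf4. GC boxes are not marked.
Atp5g1: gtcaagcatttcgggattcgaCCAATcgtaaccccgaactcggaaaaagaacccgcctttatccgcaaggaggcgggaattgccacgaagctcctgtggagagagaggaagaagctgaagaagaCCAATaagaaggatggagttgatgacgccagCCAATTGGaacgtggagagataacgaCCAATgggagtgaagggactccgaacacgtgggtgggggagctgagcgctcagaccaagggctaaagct
Atp5g2: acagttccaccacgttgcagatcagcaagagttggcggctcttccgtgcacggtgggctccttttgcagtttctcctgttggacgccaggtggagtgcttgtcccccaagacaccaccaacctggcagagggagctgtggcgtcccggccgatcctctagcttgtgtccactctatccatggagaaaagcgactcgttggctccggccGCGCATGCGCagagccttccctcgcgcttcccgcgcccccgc
Atp5g3: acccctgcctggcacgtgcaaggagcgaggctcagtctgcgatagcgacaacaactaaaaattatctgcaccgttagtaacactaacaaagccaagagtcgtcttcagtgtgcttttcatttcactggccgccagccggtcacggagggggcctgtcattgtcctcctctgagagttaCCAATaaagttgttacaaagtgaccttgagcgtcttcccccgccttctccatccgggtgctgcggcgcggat
Ndufaf4: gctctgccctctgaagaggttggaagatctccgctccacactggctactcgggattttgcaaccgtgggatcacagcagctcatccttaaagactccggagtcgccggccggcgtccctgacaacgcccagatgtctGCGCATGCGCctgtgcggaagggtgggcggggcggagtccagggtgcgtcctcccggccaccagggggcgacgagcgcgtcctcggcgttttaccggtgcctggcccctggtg
Cox7a1: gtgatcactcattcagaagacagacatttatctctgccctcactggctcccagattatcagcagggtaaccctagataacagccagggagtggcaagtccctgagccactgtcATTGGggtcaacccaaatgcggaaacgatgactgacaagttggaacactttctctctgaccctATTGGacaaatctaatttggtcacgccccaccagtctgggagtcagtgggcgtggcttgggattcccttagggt

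Across the promoters of the genes, NRF1, a transcription factor known for its sites before respiratory genes, had its palindrome in 5 of 70 genes with a RefSeq promoter (7.14%), beside 0.877% of 27025 promoters of the same length. These were Atp5g2, Atp5k, Cox6a1, Ndufa11 and Ndufaf4. The ETS core CCGGAAG, read by the factor GABPA, was in 12 (17.1%) beside 7.83% of all promoters. CCAAT was found in 42.9% beside 37.5%, TATAAA in 10% beside 14.3%, and the GC box GGGCGG in 40% beside 35.4%. The palindromic estrogen response element, GGTCA and its reverse complement TGACC with any 3 bases between them, was in 0 of 70 and in 18 of all promoters (0.0666%). All motifs were searched on both strands and may overlap. A match is a description of the letters and does not show binding.

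Transcripts of the respiratory chain and ATP synthase lay close to their CT levels in LERKO liver. Of 84 genes, 36 were above and 48 below 0, with a median difference of −0.01 on the log2 scale. With each array centred on its median the split was 43 above and 41 below, so the side on which the majority lay depended on the scaling. Over all probe sets tested, 46.5% were above 0, with the same median of −0.01, and 51.0% of the whole table were. After Benjamini-Hochberg adjustment in limma, 0 of the 71 tested genes passed 0.05, as did 0% of all probe sets tested, and the smallest adjusted p among the genes was 0.703. In the same fit Esr1, the targeted gene, differed by −1.65 and also missed the threshold, with an adjusted p of 0.149 from limma. That 0 genes passed therefore does not by itself show unchanged levels. At an unadjusted p under 0.05, 0 genes were higher and 1 was lower, Atp5g1, beside 2.98% of all probe sets higher and 4.00% lower.

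The intervals show how large a difference in array signal these 6 mice leave room for. How closely the signal follows the amount of transcript was not tested. For 69 of the 71 tested genes (97.2%) the 95% interval lay wholly inside a 1.5-fold change in either direction, beside 85.3% of all probe sets tested. For 39 (54.9%) it lay inside a 1.2-fold change, beside 28.6%. The exceptions at 1.5-fold were Cox7a1, a subunit isoform of muscle, and Cox7a2l, known as a factor of supercomplexes of complexes III and IV. Its function in this strain was not tested. For the 67 genes measured in all arrays, differences ran from −0.26 (Ndufs5) to 0.22 (Cox7a2l), and 52 of them were within 0.1 of 0. The spread among mice of a genotype was small for these genes, with a median SD of 0.099 over all 84. It was 0.123 over all probe sets tested and 0.116 over the 6902 tested genes with a single-gene probe set. The interval shares over all probe sets tested also include probe sets not paired with a single gene.

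**Figure D1:**
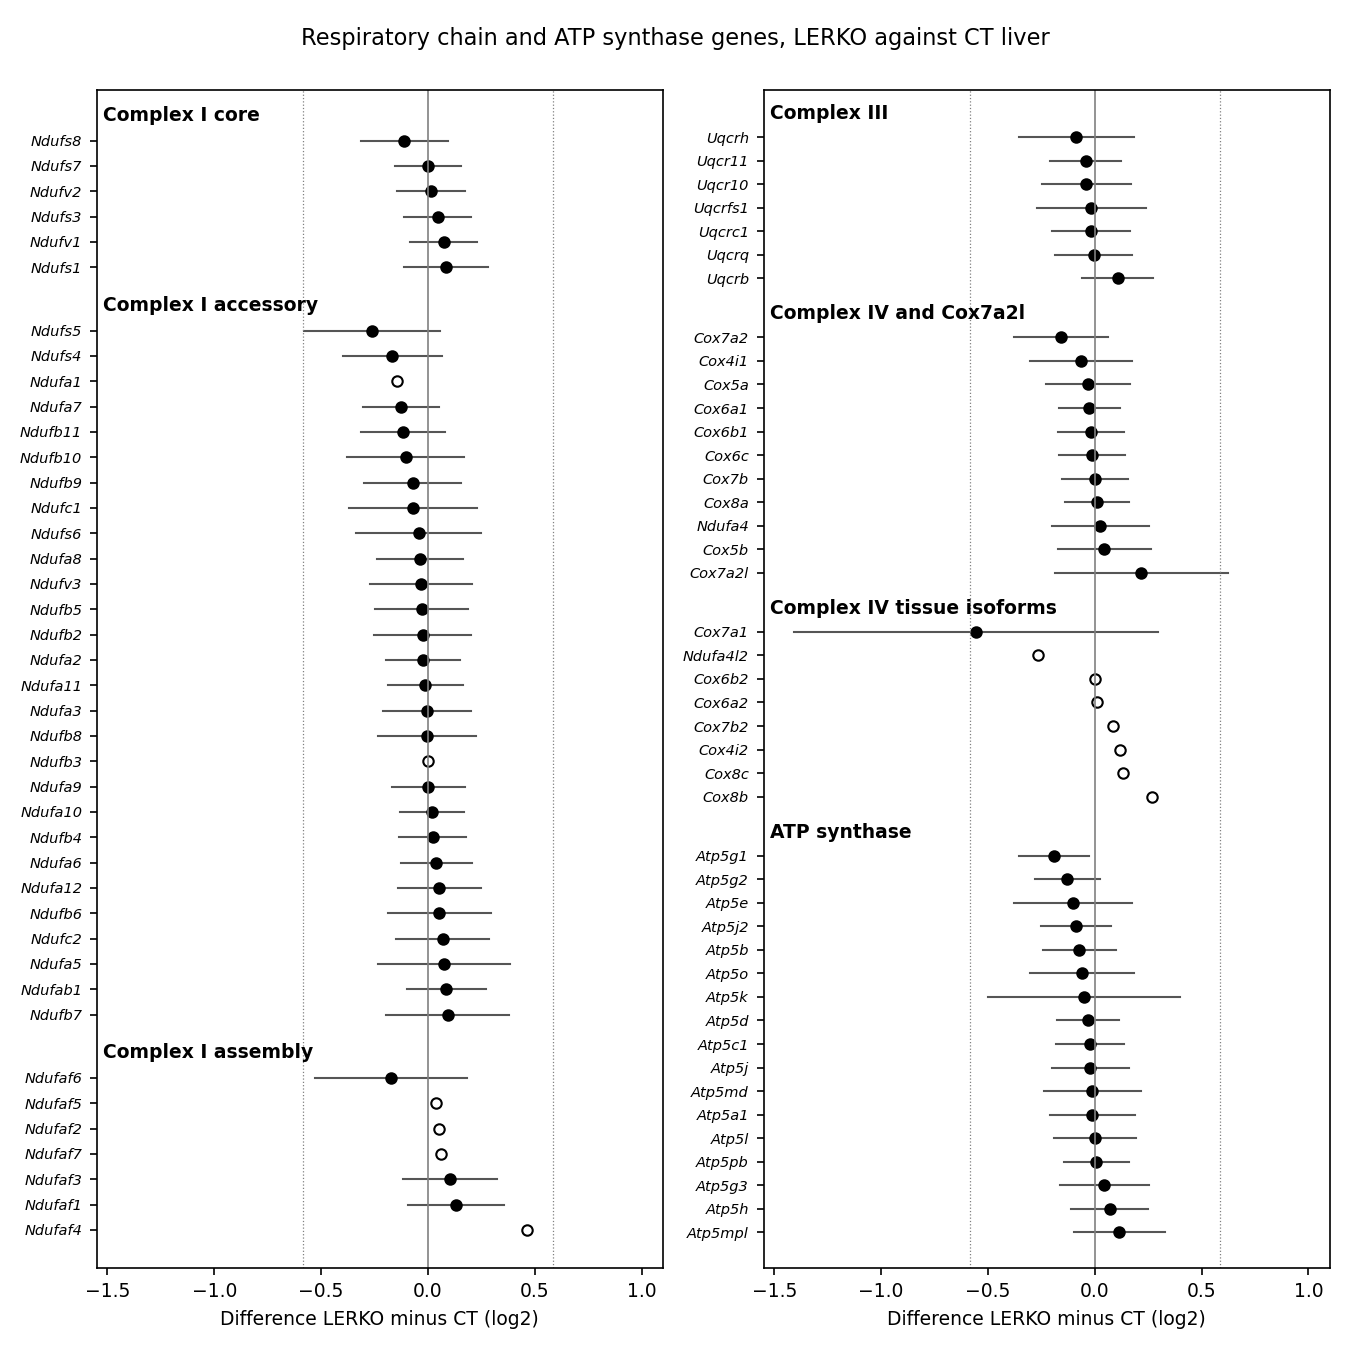
Difference in log2 RMA signal, LERKO minus CT, of the 84 genes by complex. Filled points are genes tested with limma, with bars for the 95% interval, open points are the 13 genes below a signal of 100 in all 6 arrays, and dotted lines mark a 1.5-fold change; most points lie within 0.1 of 0, and only the interval of Atp5g1 leaves out 0.

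In 4 of the 84 genes every LERKO mouse was above every CT mouse, and in 5 every LERKO mouse was below, beside 5.47% and 4.80% of all 35556 probe sets. The 4 higher genes were Ndufv1, Uqcrb, Ndufaf4 and Cox4i2, of which Ndufaf4 and Cox4i2 were under a signal of 100 in all arrays. The 5 lower genes were Atp5g1, Atp5g2, Atp5j2, Atp5b and Ndufa7. Among the 71 tested genes, 2 were separated upward and 5 downward, beside 5.91% and 7.13% of all probe sets tested.

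Complex I takes electrons from NADH through a flavin and a chain of iron-sulphur clusters held by its core subunits. Of its 34 subunit genes 14 were higher and 20 lower in LERKO liver, with a median difference of −0.0047 and a range from −0.26 to 0.09. The 6 core genes measured here had a median of 0.03, and 4 of them were above 0. The 28 accessory genes, whose products surround the core, had a median of −0.02, with 10 above 0.

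Ndufv1, the subunit that binds NADH and flavin, was at 9.62, 9.54 and 9.61 in CT and at 9.62, 9.70 and 9.66 in LERKO mice. All LERKO values were above all CT values, by a margin that vanishes at 2 decimals, and the difference was 0.07 (SE 0.07, adjusted p = 0.821 from limma). Its partner Ndufv2 was at 10.61, 10.72 and 10.61 in CT and at 10.64, 10.67 and 10.65 in LERKO mice, a difference of 0.01 with overlapping groups. Ndufs1, the largest subunit and holder of several iron-sulphur clusters, was at 8.41, 8.53 and 8.33 in CT and at 8.42, 8.55 and 8.55 in LERKO mice. The groups overlapped, and the difference was 0.08 (SE 0.08, adjusted p = 0.833 from limma).

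The next core genes belong to the path that leads electrons to ubiquinone. Ndufs7, whose product holds the last cluster before ubiquinone, was at 11.82, 11.78 and 11.78 in CT and at 11.85, 11.78 and 11.75 in LERKO mice, and its 95% interval ran from −0.15 to 0.15. Ndufs3 was at 9.72, 9.84 and 9.76 in CT and at 9.83, 9.83 and 9.79 in LERKO mice, a difference of 0.05. For Ndufs8 the CT mice lay between 10.68 and 10.70, while the LERKO mice spread from 10.46 to 10.72, and the difference was −0.11 (SE 0.09, adjusted p = 0.809 from limma). LERKO replicate 1 was the lowest LERKO mouse for Ndufs8, and replicate 2 was above all CT mice.

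Among the accessory genes the largest difference was in Ndufs5, a small subunit of the membrane arm. It was at 7.53, 7.53 and 7.43 in CT and at 7.22, 7.50 and 6.99 in LERKO mice. LERKO replicates 1 and 3 were below all CT mice and replicate 2 was not, and the difference of −0.26 (SE 0.13, adjusted p = 0.736 from limma) ranged from −0.39 to −0.14 with 1 array left out. Ndufs4, an accessory subunit near the NADH-binding part whose loss causes complex I deficiency, was at 10.55, 10.67 and 10.48 in CT and at 10.34, 10.56 and 10.30 in LERKO livers. Again LERKO replicates 1 and 3 were below all CT mice, and the difference was −0.17 (SE 0.10, adjusted p = 0.758 from limma). Ndufa7 was at 9.11, 9.06 and 8.92 in CT and at 8.90, 8.89 and 8.91 in LERKO mice. Here each LERKO mouse was below each CT mouse, the closest by only 0.0009, and the difference was −0.12 (SE 0.07, adjusted p = 0.758 from limma). In the other direction, Ndufab1, the mitochondrial acyl carrier protein that is also a complex I subunit, was at 8.00, 8.19 and 8.06 in CT and at 8.22, 8.17 and 8.12 in LERKO mice, with a difference of 0.09 and overlapping groups.

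The assembly factors build complex I and do not stay in it. Of 7 Ndufaf genes, 6 were higher in LERKO liver, with a median difference of 0.06, and 4 of the 7 were below a signal of 100 in all arrays. Ndufaf4 was at 6.11, 5.95 and 6.18 in CT and at 6.55, 6.62 and 6.47 in LERKO mice. The groups were separated, with the lowest LERKO mouse above the highest CT mouse, and the difference of 0.46, or 1.38-fold, was the largest rise among the 84 genes. All 6 values were under a signal of 100 (6.64), so the gene was not among those tested, and the difference ranged from 0.40 to 0.51 with 1 array left out. With no filter on signal, limma gave it an unadjusted p of 0.00246 and an adjusted p of 0.944, and it was the 1 gene of 84 higher at an unadjusted p under 0.05, with 0 lower, beside 2.36% and 2.53% of all 35556 probe sets. Ndufaf1 was at 7.51, 7.60 and 7.36 in CT and at 7.61, 7.52 and 7.73 in LERKO mice, a difference of 0.13 with overlapping groups (SE 0.09, adjusted p = 0.796 from limma). The median of the 7 genes depended on single mice and ranged from 0.044 to 0.13 when each array was left out, the highest value without LERKO replicate 1.

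Complex III passes electrons from ubiquinol to cytochrome c. Its 7 genes gave 1 higher and 6 lower, with a median difference of −0.02 and a range from −0.09 to 0.11. Uqcrfs1, the Rieske iron-sulphur protein, was at 7.74, 7.94 and 7.62 in CT and at 7.62, 7.85 and 7.78 in LERKO mice. Uqcrc1, a core protein, was at 10.99, 10.88 and 10.91 in CT and at 10.87, 11.01 and 10.85 in LERKO mice. The groups overlapped for each of these genes, and the difference was −0.02 for each. Uqcrb, a small subunit at the quinone site, was the gene above 0, at 11.88, 11.77 and 11.91 in CT and at 11.98, 11.99 and 11.92 in LERKO mice. The groups were separated by a narrow gap, and the difference was 0.11 (SE 0.07, adjusted p = 0.783 from limma). Its other probe sets gave 0.10 and 0.09, and whether related sequences share the Uqcrb probes was not tested. Uqcrh, the hinge protein that binds cytochrome c1, had the largest fall, at 9.57, 9.87 and 9.50 in CT and at 9.49, 9.65 and 9.53 in LERKO mice. CT replicate 2 stood above the other mice for Uqcrh, and the difference of −0.09 became 0.02 when that array was left out. For Uqcr10 and Uqcr11 the differences were −0.04 each, and a second probe set of Uqcr10 gave 0.05.

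Complex IV, cytochrome c oxidase, is built on mitochondrially encoded core subunits, and the genes measured here encode the subunits around them. Of 10 genes of the forms used in liver, 4 were higher and 6 lower, with a median difference of −0.02 and a range from −0.16 to 0.04. Ndufa4, named for complex I and now counted with complex IV, is among them at 0.03. Cox4i1, the regulatory subunit that responds to ATP, was at 9.84, 10.08 and 9.76 in CT and at 9.92, 9.79 and 9.78 in LERKO mice. Cox5a was at 8.45, 8.44 and 8.42 in CT and at 8.32, 8.55 and 8.34 in LERKO mice. Neither gene separated the groups, with differences of −0.06 and −0.03. Cox5b was at 10.45, 10.64 and 10.34 in CT and at 10.50, 10.54 and 10.52 in LERKO mice, and had the largest difference upward of the 10 genes at 0.04.

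On the probe sets used, the liver forms of the subunits that also have a muscle form did not separate the groups. Cox6a1 was at 10.08, 10.06 and 10.08 in CT and at 10.03, 10.08 and 10.04 in LERKO mice. Cox8a was at 11.36, 11.41 and 11.33 in CT and at 11.37, 11.36 and 11.40 in LERKO mice. Their 95% intervals ran from −0.17 to 0.12 and from −0.14 to 0.16. A second probe set of Cox6a1, under a signal of 100, gave 0.23 with separated groups, the widest gap between probe sets of a gene. Cox7a2 was at 9.03, 9.05 and 9.10 in CT and at 8.77, 9.07 and 8.86 in LERKO mice. LERKO replicates 1 and 3 lay below all CT mice, and the difference was −0.16 (SE 0.09, adjusted p = 0.758 from limma), or −0.24 without LERKO replicate 2. Cox7a2l, the supercomplex factor, was at 7.46, 7.57 and 7.07 in CT and at 7.50, 7.40 and 7.85 in LERKO mice. CT replicate 3 was low and LERKO replicate 3 high, and the difference of 0.22 (SE 0.17, adjusted p = 0.809 from limma) ranged from 0.07 to 0.32 with 1 array left out. A second probe set of Cox7a2l gave 0.31 with separated groups and an unadjusted p of 0.0478 from limma.

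**Figure D2:**
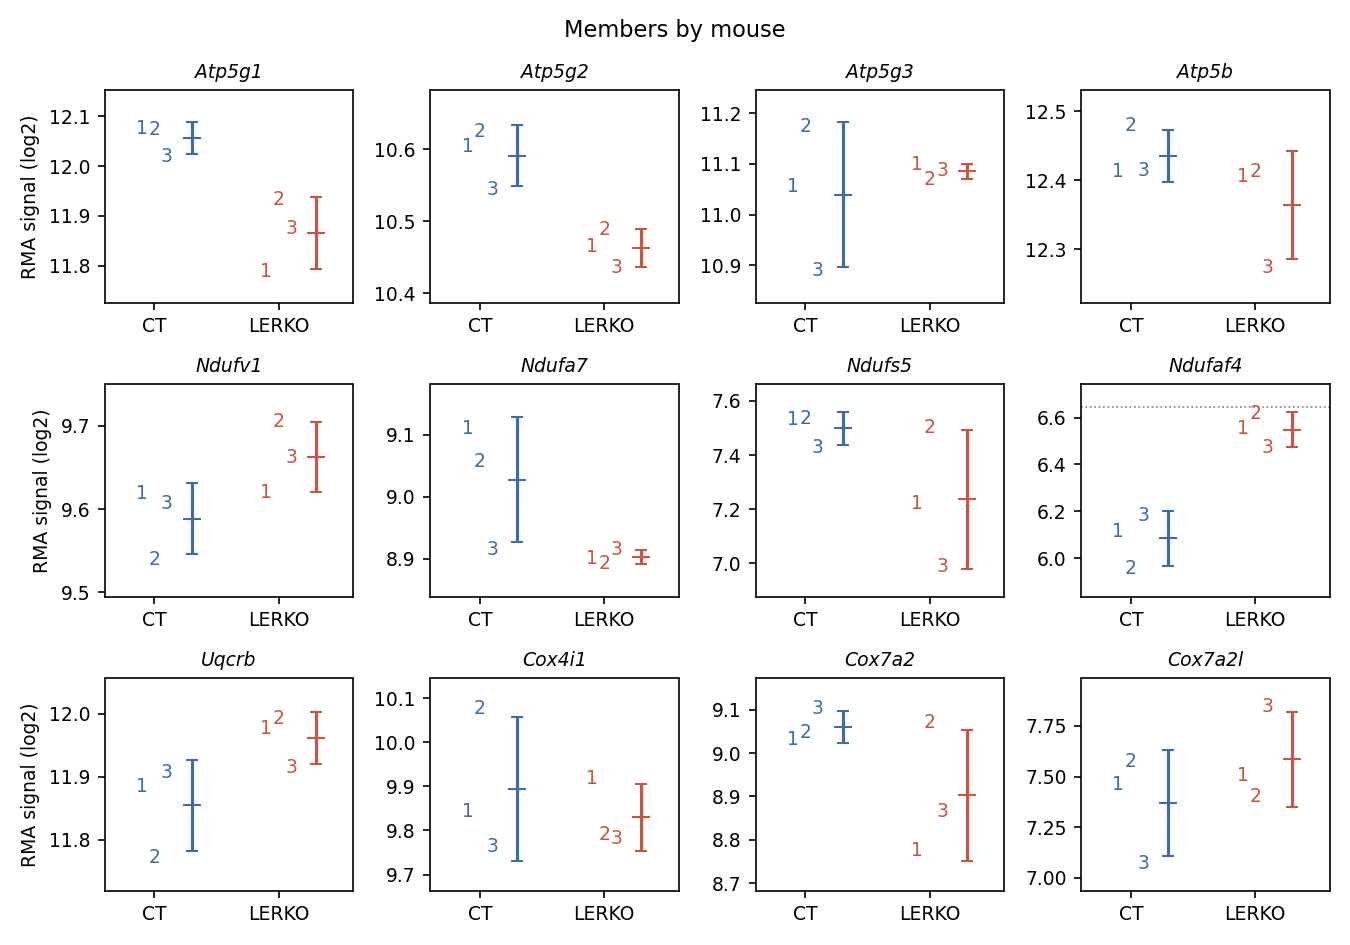
Log2 RMA signal of 12 named genes, 1 number per mouse giving its replicate number, with the mean and SD of 3 CT and 3 LERKO mice beside them; the axes differ between panels and do not start at 0, and the dotted line is a signal of 100. LERKO mice lie below CT mice for Atp5g1, Atp5g2, Atp5b and Ndufa7 and above them for Ndufv1, Ndufaf4 and Uqcrb.

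The tissue isoforms of complex IV replace the liver forms in muscle, brown fat, lung or testis. Of 8 such genes, 7 were below a signal of 100 in all 6 mice, and 5 were higher and 3 lower in LERKO liver. Cox8b, the form of muscle and brown fat, was at 4.07, 3.61 and 6.00 in CT and at 4.10, 6.44 and 3.96 in LERKO mice. It was high in CT replicate 3 and LERKO replicate 2 and low in the other mice of each genotype. Its difference of 0.27 ran from −0.53 without LERKO replicate 2 to 0.99 without CT replicate 3. Cox6a2, a form of skeletal muscle and heart, was highest in CT replicate 3 at 5.67, and lay between 4.50 and 5.16 in the others. Single markers of other tissues, chosen after their values were seen, were also high in CT replicate 3, LERKO replicate 2 or both. Ckm, the muscle form of creatine kinase, reached 8.33 in CT replicate 3, 6.12 in LERKO replicate 2 and 4.75 or less in the others. Ucp1, the uncoupling protein of brown fat, was at 5.89 in LERKO replicate 2 and between 2.92 and 3.29 in the others. Retn, a hormone of fat cells, was at 7.09 in LERKO replicate 2 and at 4.74 or less in the others. Of the muscle list, which holds Cox6a2 itself, 13 of 20 genes were under a signal of 100 in all arrays. Some genes of the lists followed another order. Neb of the muscle list was highest in CT replicate 2 (7.77) and Tnnt1 in LERKO replicate 1 (4.62). Elovl3 of the brown fat list was highest in LERKO replicate 3 (6.97). The part of these tissues in the isoform values was not tested.

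Cox7a1, another isoform of muscle and brown fat, followed another order, at 6.25, 7.02 and 6.45 in CT and at 5.41, 6.74 and 5.90 in LERKO mice. LERKO replicates 1 and 3 were below all CT mice, and LERKO replicate 2 was above CT replicates 1 and 3. Only CT replicate 2 and LERKO replicate 2 reached a signal of 100. The difference of −0.56 (SE 0.36, adjusted p = 0.775 from limma) was the largest fall among the 84 genes, with an interval from −1.41 to 0.30, and it was −0.92 without LERKO replicate 2 and −0.26 without LERKO replicate 1. Cox4i2, the isoform of lung, lay between 3.83 and 3.91 in CT and between 3.93 and 4.11 in LERKO mice, and Ndufa4l2, which is induced at low oxygen, lay between 4.43 and 4.74 and between 4.10 and 4.61. Cox6b2, Cox7b2 and Cox8c, known from testis, had differences of −0.0007, 0.09 and 0.13.

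**Figure D3:**
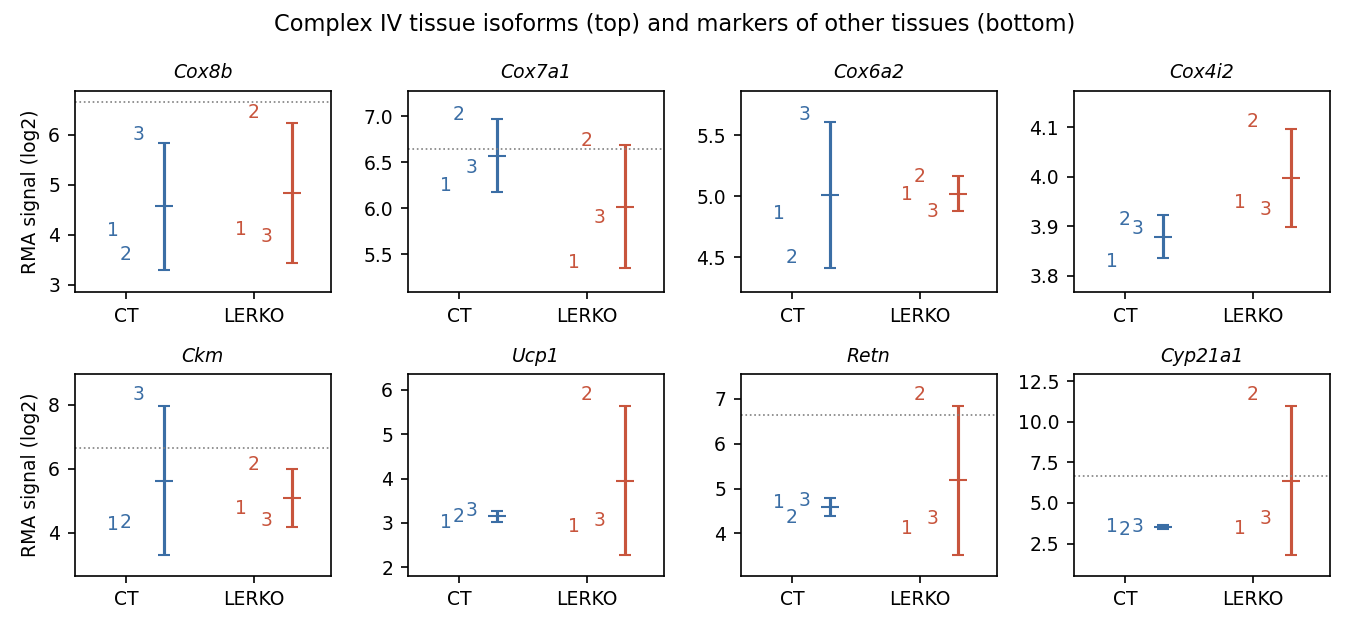
Log2 RMA signal of complex IV isoforms of other tissues (top) and of markers of muscle (Ckm), brown fat (Ucp1), fat cells (Retn) and adrenal cortex (Cyp21a1), with 1 number per mouse giving its replicate number, the mean and SD of each genotype, and a dotted line at a signal of 100; axes differ between panels. Cox8b and Ckm are highest in CT replicate 3 and LERKO replicate 2, and Ucp1, Retn and Cyp21a1 in LERKO replicate 2.

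ATP synthase consists of a catalytic head in the matrix and a membrane part whose ring of c subunits turns as protons pass. Of its 17 genes, 5 were higher and 12 lower in LERKO liver, with a median difference of −0.02 and a range from −0.19 to 0.11. The 5 genes of the head and its rotor shaft were all below 0, with a median of −0.03. The 12 genes of the membrane part and outer stalk gave 5 higher and 7 lower. Atp5b, the catalytic beta subunit, was at 12.41, 12.48 and 12.41 in CT and at 12.41, 12.41 and 12.27 in LERKO mice. The groups were separated in the third decimal place, and the difference was −0.07 (SE 0.07, adjusted p = 0.831 from limma). Atp5a1, the alpha subunit, was at 11.16, 11.25 and 11.06 in CT and at 11.07, 11.24 and 11.13 in LERKO mice. Atp5c1, the gamma subunit that forms the rotor shaft, was at 9.68, 9.62 and 9.56 in CT and at 9.58, 9.58 and 9.63 in LERKO mice. Both overlapped between genotypes, with differences of −0.01 and −0.02.

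The c subunit is encoded by 3 genes, Atp5g1, Atp5g2 and Atp5g3, which yield the same mature protein from different precursors and whose separate promoters are printed above. Atp5g1 was at 12.08, 12.07 and 12.02 in CT and at 11.79, 11.93 and 11.88 in LERKO mice. All LERKO mice were below all CT mice. The difference of −0.19 (SE 0.07, 95% interval −0.36 to −0.02) is a 1.14-fold lower level, with an unadjusted p of 0.0303 and an adjusted p of 0.703 from limma, and it ran from −0.22 to −0.15 with 1 array left out. The unadjusted p was no longer under 0.05 when CT replicate 1, CT replicate 2, LERKO replicate 1 or LERKO replicate 3 was left out, nor with no filter on signal or with the replicate number as a block. A second probe set of Atp5g1 gave −0.16, also with separated groups. Whether related sequences, such as processed copies of these genes, share the probes was not tested. Atp5g2 was at 10.60, 10.62 and 10.54 in CT and at 10.46, 10.49 and 10.44 in LERKO mice. Its groups were separated too, on each of its 3 probe sets, and the difference was −0.13 (SE 0.06, adjusted p = 0.726 from limma). Atp5g3 was at 11.06, 11.17 and 10.89 in CT and at 11.10, 11.07 and 11.09 in LERKO mice. Its groups overlapped, and the difference was 0.05 (SE 0.09, adjusted p = 0.925 from limma). Whether the c subunit genes differ from each other was not tested.

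Among the other membrane and stalk genes, Atp5j2, the f subunit, was at 11.28, 11.39 and 11.27 in CT and at 11.20, 11.22 and 11.26 in LERKO mice, with separated groups and a difference of −0.09. Atp5h, the d subunit of the outer stalk, was at 10.75, 10.92 and 10.75 in CT and at 10.84, 10.89 and 10.90 in LERKO mice, a difference of 0.07 with overlapping groups. Its other probe sets gave 0.07, 0.10 and 0.18, the last with separated groups. Atp5mpl, a small proteolipid of the membrane part, was at 8.58, 8.62 and 8.46 in CT and at 8.54, 8.69 and 8.77 in LERKO mice. It had the largest difference upward in the complex at 0.11, and its groups overlapped.

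The order of the CT mice was that of the arrays as a whole. Relative to the mean of the 6 mice, all probe sets tested averaged 0.02, 0.03 and −0.03 in CT replicates 1 to 3 and −0.03, −5.6e-05 and 0.0073 in LERKO replicates 1 to 3. Relative to the mean of the 6 mice, the 34 complex I genes averaged 0.03, 0.07 and −0.07 in CT replicates 1 to 3 and −0.04, 0.03 and −0.02 in LERKO replicates 1 to 3. The 17 ATP synthase genes averaged 0.03, 0.09 and −0.07 in CT and −0.06, 0.0090 and −0.00086 in LERKO mice. CT replicate 2 was the highest and CT replicate 3 the lowest mouse in each of these complexes, so that CT mice spread more than the genotypes differed. CT replicate 2 was highest of the 6 mice in 36 of 84 genes (42.9%), beside 28.3% of all probe sets tested, and CT replicate 3 lowest in 31 (36.9%), beside 24.4%. Without CT replicate 2, 49 of the 84 genes were higher and 35 lower in LERKO liver, the opposite majority to that with all mice. CT replicate 3 is also an array with transcripts of other organs, and their part in this order was not tested.

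**Figure D4:**
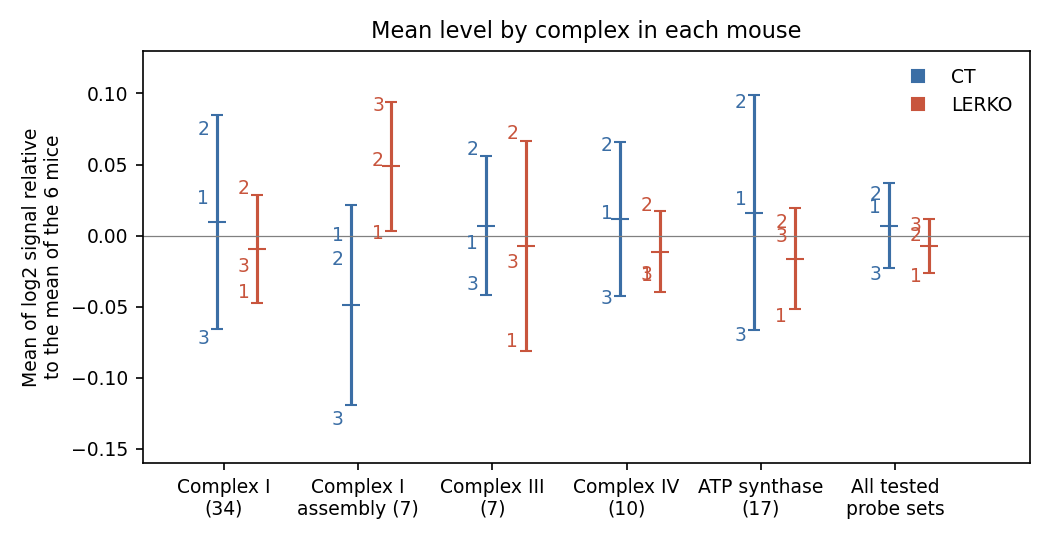
Mean over the genes of each complex (number of genes in parentheses) of the log2 RMA signal relative to the mean of the 6 mice, with 1 number per mouse giving its replicate number and the mean and SD of 3 mice per genotype. CT replicate 2 is the highest mouse and CT replicate 3 the lowest for complex I and ATP synthase, and the genotypes overlap in each complex except the assembly factors, where LERKO replicate 1, at 0.0013, lies barely above CT replicate 1, and where they also overlap without Ndufaf4.

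With the arrays that hold transcripts of other organs left out, more genes lay below 0 where CT replicate 3 was among them. Without CT replicate 3, 26 genes lay above 0 and 58 below, the median being −0.03, and 42.7% of all probe sets tested were above 0. Without LERKO replicate 2, 35 genes lay above 0 and 49 below. Without CT replicate 3 and LERKO replicate 2, 25 genes lay above 0 and 59 below, the median being −0.04 beside −0.03 for all probe sets tested. At an unadjusted p under 0.05, 6 genes were then lower (Atp5g1, Cox7a1, Ndufaf6, Ndufb10, Ndufs4 and Ndufs5) and 0 higher, beside 6.81% and 4.03% of all probe sets tested. Without LERKO replicate 2 alone, 5 genes were lower (Atp5g1, Cox7a1, Cox7a2, Ndufs4 and Ndufs5) and 0 higher, beside 4.12% and 3.41%. Without CT replicate 3 alone, 4 were lower (Atp5g1, Ndufa7, Ndufaf6 and Ndufb10) and 0 higher, beside 7.36% and 3.81%. The median of the ATP synthase genes was −0.11 without these arrays, beside −0.02 with all. After adjustment 0 genes passed in any of these fits, and the smallest adjusted p was 0.392.

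Most other genes of the pathway that the symbol rule leaves out also lay near their CT levels. These were 55 genes of complex II, cytochromes c and c1, ATP synthase parts under other names and the assembly of the complexes. Of them 36 (65.5%) were higher and 19 lower, with a median difference of 0.03. Above 0 were 46.5% of all probe sets tested and 51.0% of the whole table, tested or not. Differences ran from −0.42 (Nubpl) to 0.37 (Higd1a), each below a signal of 100 in all arrays, as were 12 of the 55 genes. In 4 of the 55 every LERKO mouse was above every CT mouse, and in 2 every LERKO mouse was below. Over all 35556 probe sets the shares were 5.47% and 4.80%. In limma 0 passed an adjusted p of 0.05. At an unadjusted p under 0.05, 2 of the 43 tested were higher and 0 lower, beside 2.98% and 4.00% of all probe sets tested. Among the complex II subunits, Sdha, the flavoprotein, lay between 10.82 and 10.90 in CT and between 10.87 and 10.93 in LERKO mice, and the differences of Sdha, Sdhb, Sdhc and Sdhd were 0.03, −0.05, −0.10 and 0.08. Cyc1, cytochrome c1 of complex III, differed by 0.04, and Cycs, the mobile carrier cytochrome c, by 0.10. The 2 genes higher at an unadjusted p under 0.05 were Cox10 and Uqcc1. Cox10, an enzyme that makes the heme of complex IV, was at 7.30, 7.44 and 7.52 in CT and at 7.70, 7.74 and 7.64 in LERKO mice, with separated groups and a difference of 0.27 (SE 0.08, adjusted p = 0.703 from limma). Uqcc1, a complex III assembly factor, was at 7.06, 7.12 and 6.98 in CT and at 7.30, 7.16 and 7.31 in LERKO mice, also with separated groups and a difference of 0.20 (SE 0.08, adjusted p = 0.703 from limma). The gene with the smallest p among those lower was Cox19, a copper-handling factor of complex IV assembly, at 6.76, 6.62 and 6.60 in CT and 6.49, 6.48 and 6.57 in LERKO mice, a difference of −0.14.

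Of 20 regulators of respiratory gene transcription, 10 were higher and 10 lower, and 8 were below a signal of 100 in all arrays. Of the 12 tested in limma, 0 passed an adjusted p of 0.05. At an unadjusted p under 0.05, 0 were higher and 1 was lower, beside 2.98% and 4.00% of all probe sets tested. Ppargc1b, a coactivator of mitochondrial genes, was at 7.75, 7.91 and 7.30 in CT and at 6.98, 7.29 and 7.22 in LERKO mice. All LERKO mice were below all CT mice, although LERKO replicate 2 and CT replicate 3 were within 0.01 of each other, and the difference was −0.49 (SE 0.17, unadjusted p = 0.026, adjusted p = 0.703 from limma). Its relative Ppargc1a was at 9.25, 9.08 and 8.72 in CT and at 9.08, 9.16 and 8.69 in LERKO mice, a difference of −0.04 with overlapping groups. Tfam, which packages and transcribes mitochondrial DNA, was at 6.68, 6.74 and 6.65 in CT and at 6.87, 6.77 and 6.91 in LERKO mice, with separated groups and a difference of 0.16 (SE 0.07, adjusted p = 0.703 from limma). Gabpa, Esrra and Nrf1, factors known to act on respiratory genes, differed by −0.0026, 0.04 and 0.09, the last below a signal of 100 in all arrays. Of 18 mitochondrial carriers and membrane proteins, 12 lay above 0 and 6 below (median 0.03). Above 0 were 46.5% of all probe sets tested and 51.0% of the whole table. Of the 17 tested in limma, 0 passed an adjusted p of 0.05. At an unadjusted p under 0.05, 1 was higher and 0 lower, beside the same 2.98% and 4.00%.

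**Figure D5:**
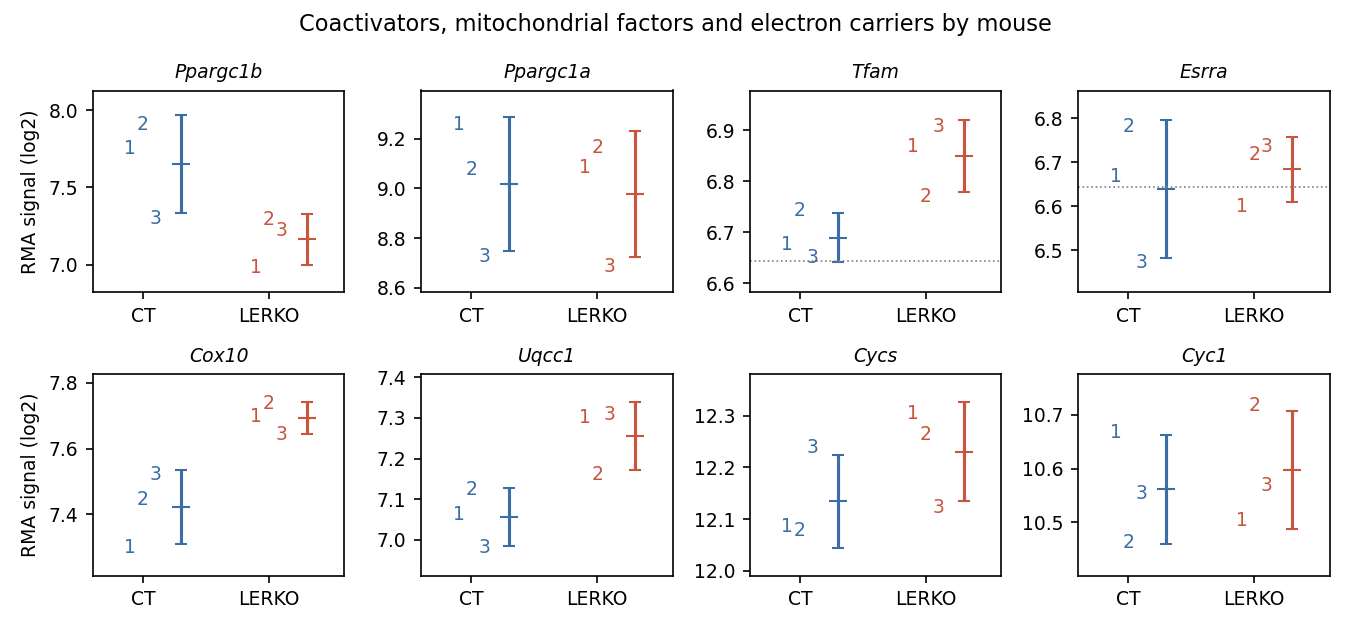
Log2 RMA signal of regulators (Ppargc1b, Ppargc1a, Tfam, Esrra), assembly factors (Cox10, Uqcc1) and electron carriers (Cycs, Cyc1), 1 number per mouse giving its replicate number, with the mean and SD of 3 CT and 3 LERKO mice; axes differ between panels, and the dotted line is a signal of 100. LERKO mice lie below CT mice for Ppargc1b, above them for Tfam, Cox10 and Uqcc1, and among them for Ppargc1a, Esrra, Cycs and Cyc1.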

How the data were processed

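Liver RNA of 3 CT and 3 LERKO mice was hybridised to 1 array each. The authors computed RMA values with the oligo package (version not given in the sources used here), and the deposited values are background-corrected, quantile-normalized log2 signals per probe set, unfiltered. Genes were named from the array's annotation, only for probe sets with 1 gene (21218 of 35556 probe sets). All 84 genes matched RefSeq by identifier. Ndufa13, Uqcrc2 and Cox7c have only probe sets shared with other genes and were not analysed. Probe sets with a signal of 100 or more in at least 1 array were tested by genotype with limma 3.58.1 (R 4.3.3; lmFit and eBayes), with p values adjusted by Benjamini-Hochberg, at a 5% false discovery rate, over 10633 probe sets. The code was tested on simulated data.

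Genes named with values were the catalytic core subunits, the 3 smallest p values per complex and direction, the isoforms and c subunit genes, and listed regulators. Ndufaf4, Ndufa11, Nubpl and Higd1a, outside these groups, were added after their values were seen, as were single marker genes. The genes and lists were chosen with earlier results of these data known. The labels name no batches. SEs, intervals and p values from limma rest on the spread between 3 mice per genotype, which eBayes draws towards that of all probe sets tested. An exact permutation test of 3 against 3 cannot go below p = 0.1 and was not used. The number of arrays limits the precision. Alternatives were other filters, variance models, array weights, scalings, the methods' t-test, a replicate block and leaving out arrays. The labels do not say whether replicate numbers pair the mice.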

Additional observations from a re-analysis of the deposited data

How the results depend on the processing

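No gene of the respiratory chain or ATP synthase passed an adjusted p of 0.05 under any of 21 alternatives, and the median over the 84 genes stayed between −0.04 and 0.02. Over alternatives that keep all 84 genes, 25 to 49 were higher and 35 to 59 lower in LERKO liver, and with arrays centred on the median 43 were higher and 41 lower (median 0.0035). Over all probe sets, 0 passed with all arrays, 3 (Esr1, Hyou1 and Creld2) where a signal of 100 was required in all 6 arrays, 1 (Esr1) with a trended variance in eBayes, and 0 to 1 with 1 array left out. The median of the complex I assembly factors ran from 0.044 to 0.13 with 1 array left out. That of the ATP synthase genes was −0.11 with CT replicate 3 and LERKO replicate 2 both left out, an alternative chosen after seeing the data. The genes lower at an unadjusted p under 0.05 numbered 0 to 6 and those higher 0 to 1, beside 1 and 0 with all arrays. With no filter on signal, Ndufaf4 was the gene higher and 0 were lower. For 42 named genes, 729 of 734 differences moved by less than the spread between mice. Many of these could not move, as other filters, eBayes variance models and the methods' t-test leave a difference as it was. Leaving out 1 of 3 arrays moves a group mean by less than the SD of that group. The count is therefore no measure of stability. With the replicate block, which in this balanced design leaves every difference as it was, 0 of the 84 genes passed, and Cox7a1 in place of Atp5g1 was the gene lower at an unadjusted p under 0.05. The deviations of same-numbered mice correlated at −0.157, −0.0731 and −0.137, so they showed no positive correlation. Such values from 3 mice per genotype cannot settle whether the numbers pair mice. The methods' t-test gave 455 probe sets at an unadjusted p under 0.05 and 0 after adjustment, beside 742 by limma. Under other scalings the share of probe sets above 0 was 49.9% to 51.0%, beside 46.5%. With 3 arrays per genotype, the 95% interval of 32 of the 71 tested genes reached beyond a 1.2-fold change, so a change of that size is not excluded for them.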
